A study of Mus musculus with 20 samples.

Results

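The genes described here are 10 serotonin (5-HT) receptor genes of mouse sensory neurons, chosen by Ensembl identifier out of 37620 genes listed. They comprise both channel subunit genes, Htr3a and Htr3b, and 8 genes of G protein coupled receptors, Htr1a, Htr1b, Htr1d, Htr1f, Htr2a, Htr4, Htr5b and Htr7. The RNA came from Trpv1 neurons, a heat- and capsaicin-sensitive class of nociceptors. They were sorted from dorsal root ganglia (DRG) of the lumbar level (L4-5) and of the sacral level (L6-S1). The sacral level includes neurons of the pelvic organs. All mice were homozygous Trpv1tm2Bbm animals aged 6 to 8 weeks, so that every group carried the reporter allele and none was wild type. In this line the Trpv1 gene drives placental alkaline phosphatase and a nuclear β-galactosidase, and the sort took the cells with the brightest β-galactosidase product. Lumbar and sacral neurons were taken from the same 5 male donors (M1 to M5) and the same 5 female donors (F1 to F5), which gave 20 libraries in 4 groups of 5. Each donor label carries 2 animal numbers while the methods count 5 mice of each sex, so whether animals were pooled cannot be settled from these sources.

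Serotonin is released in the periphery by gut enterochromaffin cells, platelets and mast cells, and centrally by descending fibres that end on sensory terminals in the spinal cord. The 5-HT3 receptor is a cation channel of 5 subunits that excites sensory endings directly, and vagal and pelvic afferents are well known for it. Htr3a encodes the subunit that can form a channel alone, whereas the Htr3b subunit works only together with it. The 5-HT1 receptors act through Gi/o proteins and lower transmitter release, and Htr1b, Htr1d and Htr1f are the receptors of antimigraine drugs. The 5-HT2A receptor acts through Gq, and the 5-HT4 and 5-HT7 receptors act through Gs.

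Values are log2 RPKM, in which reads are divided by exon length and by the size of the library, so levels of different genes can be set side by side. A change is the lumbar minus the sacral log2 value, and a negative change is more RNA in sacral DRG. Each of the 10 genes had a value in all 20 libraries, and all 10 passed the filter on low values. Htr7 passed it through 1 group alone, the female sacral group, and Htr4 through 3 groups. The libraries held 43906566 to 66407317 reads on genes. The paper describes the sorted cells as a Trpv1-enriched population. The 8 peptidergic nociceptor markers were present throughout, with Trpv1 at 3.74 ± 0.41 in lumbar and 4.70 ± 0.35 in sacral libraries (log2 RPKM, mean ± SD, n = 10). Their summed RPKM was between 1608 and 2408 in lumbar libraries and between 1942 and 2682 in sacral ones. Markers of other neurons were present too, with Nefh at 5.04 and 5.01, Mrgprd at 4.35 and 4.86, and Ntrk3 lower, at 2.06 and 2.32. Of the other markers of myelinated neurons, Ntrk2 was at 4.60 and 3.83 and Spp1 at 3.08 and 1.79. Calb1, at -0.02 and -0.15, and Pvalb were low. Pvalb was at -0.29 in 10 lumbar and -2.36 in 8 sacral libraries (0 to 113 reads). Glial transcripts were present as well, with the summed RPKM of 12 glial markers between 1589 and 3249.7 in lumbar libraries and between 1045 and 1706 in sacral ones. The average of the glial markers was higher in the lumbar library of 10 of 10 donors, by 0.93 ± 0.26 on the log2 scale. The average of the nociceptor markers was lower in lumbar neurons in all 10 donors, by -0.62 ± 0.28. By limma, 11 of 12 glial, 2 of 3 tested immune, 4 of 4 red cell and 4 of 7 vascular and fibroblast markers had more RNA in lumbar libraries. So did 3 of 6 markers of myelinated neurons, Pvalb (2.11), Spp1 (1.30) and Ntrk2 (0.77), where 15.3% of all tested genes were called in this direction. More RNA in sacral libraries was called for 6 of 8 peptidergic and 3 of 5 nonpeptidergic nociceptor markers and 1 vascular marker. In that direction 30.3% of all tested genes were called. The 6 markers of itch neurons held 1 call in each direction. From which cells in the libraries this RNA came was not tested.

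**Figure D1:**
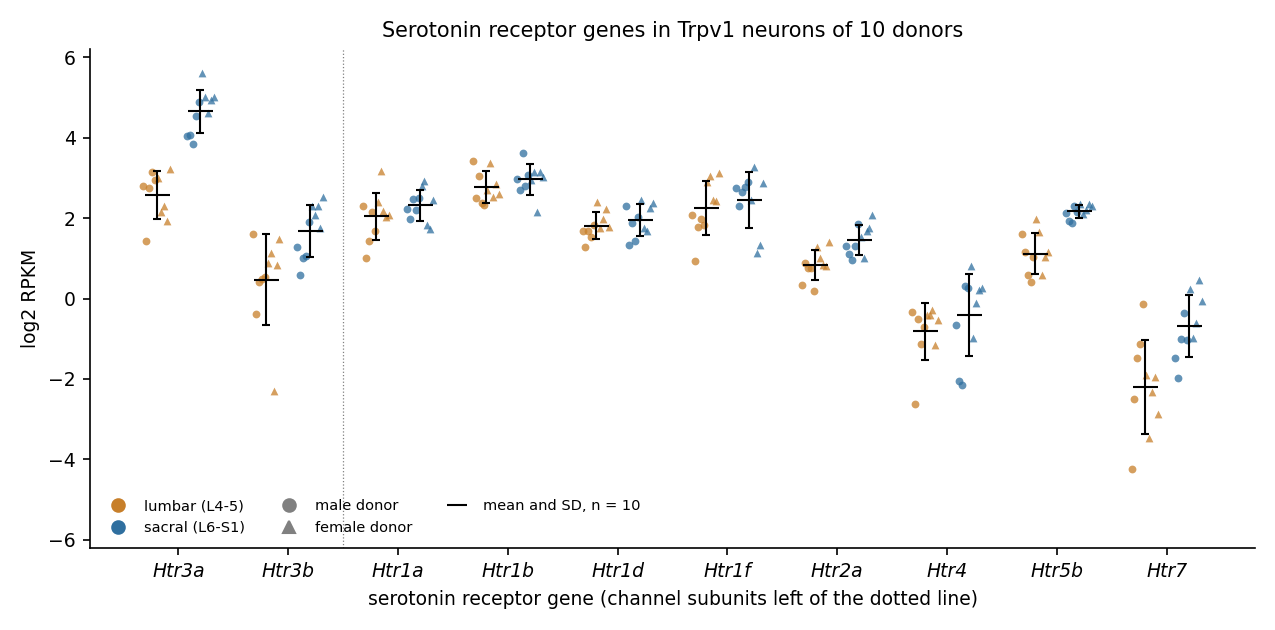
Level of each serotonin receptor gene (log2 RPKM, vertical axis) in the 10 lumbar and 10 sacral libraries; circles are male and triangles female donors, and bars give the mean and SD. The Htr3a points of the 2 levels do not overlap, and Htr4 and Htr7 lie lowest.

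In sacral Trpv1 neurons Htr3a was the most abundant of the 10 genes, and in lumbar neurons it shared the top of the order with Htr1b. The place of Htr1b is uncertain, because 852 of its 1273 exonic bases are shared with a gene on the other strand. The mean sacral level of Htr3a was 4.66 ± 0.54 (log2 RPKM, SD, n = 10), above Htr1b in 10 of 10 sacral libraries by 1.70 ± 0.69. Below it the sacral order was Htr1b at 2.96, Htr1f at 2.45, Htr1a at 2.31, Htr5b at 2.17, Htr1d at 1.95, Htr3b at 1.68, Htr2a at 1.46, Htr4 at -0.41 and Htr7 at -0.68. Of these neighbours, Htr2a stood above Htr4 by more than 1 SD of the difference (1.87 ± 0.78), and the others differed from the next gene by less than that SD. In lumbar libraries the order began with Htr1b at 2.77, Htr3a at 2.57, Htr1f at 2.25, Htr1a at 2.04 and Htr1d at 1.81, no one of which differed from the next beyond the spread. Htr1d stood above Htr5b, at 1.12, in 10 of 10 lumbar libraries. Htr2a at 0.83 and Htr3b at 0.47 followed, and Htr4 at -0.82 and Htr7 at -2.20 were again the lowest, with Htr3b above Htr4 by 1.29 ± 1.23.

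Of the 10 genes, Htr3a showed the largest difference between the levels. This gene (ENSMUSG00000032269) lies on the minus strand of chr9:48707319-48719204 (mm9) and has 9 exons in its 1 annotated transcript. Lumbar levels were 2.80, 1.44, 2.76, 3.15 and 2.96 in donors M1 to M5 and 3.0, 2.14, 2.30, 1.92 and 3.22 in donors F1 to F5 (log2 RPKM). Sacral levels were 4.05, 4.07, 3.85, 4.53 and 4.88 in the males and 5.60, 5.01, 4.61, 4.93 and 5.02 in the females. Every sacral library was above every lumbar library, a separation seen in 1.34% of the genes with 20 values. In reads, this is 226 to 1118 per lumbar library and 1494 to 5784 per sacral library. The change was -2.09 ± 0.18 on the log2 scale (SE; 95% interval -2.47 to -1.70), 4.25-fold more in sacral neurons, with an adjusted p of 1.7e-07 in limma. In RNA of sorted bulk cells, fewer cells of a type and less RNA per cell cannot be told apart.

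Htr3b, the partner subunit (ENSMUSG00000008590, minus strand of chr9:48743113-48773095), lies 23.9 kb from Htr3a and was also upregulated in sacral neurons. Its lumbar levels were 1.60, -0.38, 0.42, 0.49 and 0.54 in M1 to M5 and 0.88, 1.14, -2.31, 0.84 and 1.48 in F1 to F5 (log2 RPKM). Sacral levels were 1.28, 0.59, 1.02, 1.07 and 1.90 in the males and 2.29, 2.07, 2.30, 1.75 and 2.53 in the females. The levels overlapped, although 9 of 10 donors had more in sacral neurons. The lumbar library of F3 was far below the others, with 23 reads where the other 4 female lumbar libraries had 156 to 389. The change was -1.21 ± 0.33 (2.31-fold, adjusted p = 0.0048, limma), and without donor F3 it was -0.86 (adjusted p = 0.0018).

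The 250 bases before the RefSeq start of Htr3b (GRCm38.p6, chr9:48964991-48965240, minus strand) are shown because this gene and its neighbour were both upregulated in sacral neurons:
Htr3b: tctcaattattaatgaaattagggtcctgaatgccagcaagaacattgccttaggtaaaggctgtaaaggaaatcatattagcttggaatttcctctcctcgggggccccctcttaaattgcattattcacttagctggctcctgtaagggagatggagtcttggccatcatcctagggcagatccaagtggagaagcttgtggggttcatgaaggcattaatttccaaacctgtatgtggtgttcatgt
No capitals appear, because none of the 6 motifs searched on both strands was in this window. They were the TATA box (TATAAA), the CCAAT box (CCAAT), the GC box (GGGCGG), the cAMP response element (TGACGTCA), the octamer (ATGCAAAT) and a site of posterior Hox proteins (TTTATNG). Among all 32851 promoter windows of this length, 12.4%, 33.8%, 32.7%, 1.5%, 1.6% and 9.8% held them, in the same order. The window was 44.0% G or C, where the median of all windows was 52.4%. Of the 10 receptor genes, 7 matched an entry in this table.

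The channel subunits took a larger part of the receptor RNA at the sacral level. In lumbar libraries Htr3a and Htr3b together held 24.0 ± 6.69% of the summed RPKM of the 10 genes (SD, n = 10; range 15.1 to 33.6%). In sacral libraries they held 47.5 ± 8.26% (range 32.6 to 59.3%), and the share was higher in sacral neurons of 10 of 10 donors. Htr3a alone went from 19.1 ± 6.24% to 42.0 ± 7.28%, while the share of Htr3b was 4.86 ± 1.93% and 5.50 ± 1.83%. The summed RPKM of the 8 G protein coupled receptor genes was 25.4 ± 6.17 in lumbar and 32.1 ± 5.14 in sacral libraries. These sums include Htr1b, whose reads cannot be told apart with certainty from those of the gene that overlaps it. The shares are a description of the same values as above and were given no test.

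Within the pair, the RPKM of Htr3a was 4.28 times that of Htr3b in lumbar neurons and 7.87 times in sacral neurons, as geometric means. The difference in log2 ratio was -0.88 ± 1.26 (lumbar minus sacral, SD over 10 donors), and the ratio was higher in sacral neurons of 9 of 10 donors. An exact sign-flip permutation test over donors gave p = 0.059, two-sided, where 0.002 is the smallest this design allows. Donor F3 went the other way, by 2.30, through its low lumbar Htr3b value, and without this donor the difference was -1.23 with an exact permutation p = 0.0039. As F3 was the only donor of opposite sign, leaving it out fixed this p at the smallest that the remaining donors allow. It is therefore a description and no further test of the ratio. With 1 added to each RPKM value the difference was -1.16, and with 0.1 added it was -0.95. The exact permutation p was then 0.0039 and 0.031. An added constant weighs more on Htr3b, the lower gene, whose change was -0.75 with 1 added, where that of Htr3a was -1.91. These ratio differences and p-values thus depend in part on the constant.

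**Figure D2:**
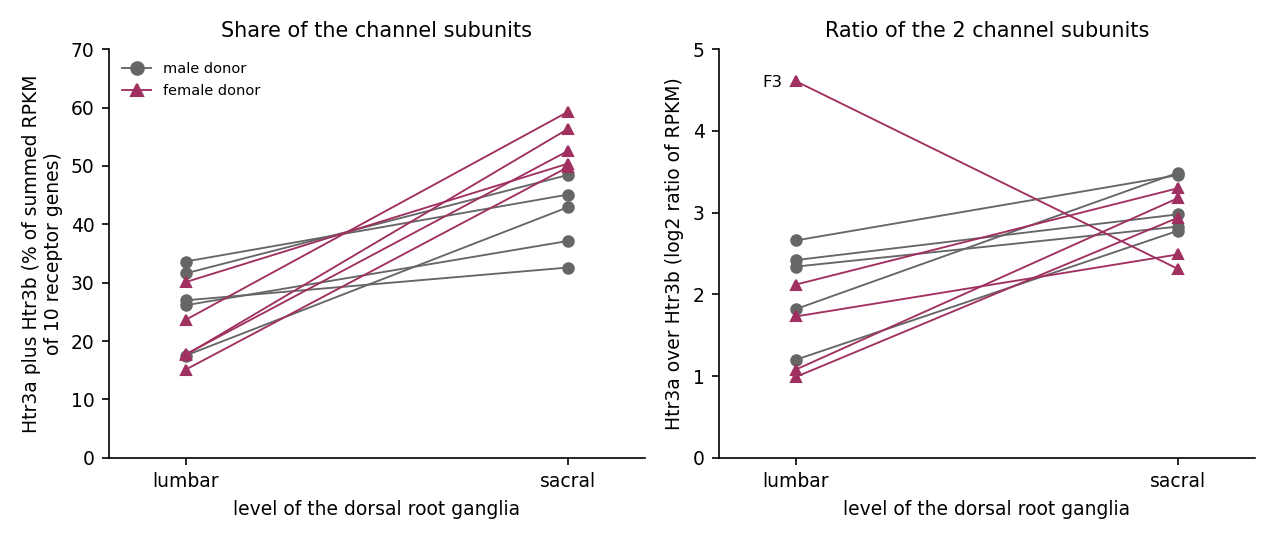
Left, share of Htr3a plus Htr3b in the summed RPKM of the 10 receptor genes (percent), and right, log2 ratio of Htr3a to Htr3b RPKM; each line joins the lumbar and sacral library of 1 donor. The share is higher in sacral neurons of all 10 donors, and the ratio in 9, with F3 as the exception.

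Of the 8 G protein coupled receptor genes, Htr5b, Htr7 and Htr2a were upregulated in sacral neurons, and no member was upregulated in lumbar neurons. With both channel subunits, 5 of the 10 genes were called at an adjusted p of at most 0.05, all 5 more in sacral neurons. Among all genes tested, 45.6% were called in either direction and 30.3% were called as more in sacral neurons. Htr7 was kept for testing by the female sacral group alone, where it was highest, so its place in this count is a description. With a filter above 0, Htr7 was not tested and 4 of 9 members were called as more in sacral neurons. At that filter 4890 of 14080 tested genes were. The median change of the 10 genes was -0.52, that of the 8 G protein coupled receptor genes was -0.34, and that of all tested genes was -0.11.

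Htr5b is the gene of the 5-HT5B receptor, which rodents have and which is not functional in humans. It lies on the minus strand of chr1:123406419-123425042 (mm9) and has 2 exons. Its lumbar levels were 1.60, 1.16, 0.59, 0.40 and 1.03 in M1 to M5 and 1.97, 1.66, 0.59, 1.03 and 1.15 in F1 to F5. Sacral levels were close together, at 2.12, 1.94, 1.89, 2.31 and 2.15 in the males and 2.35, 2.10, 2.21, 2.34 and 2.31 in the females. All 10 donors had more Htr5b in sacral neurons, as was true of Htr3a and of 14.6% of the genes with 20 values. The SD of the sacral level was 0.16, the smallest of the 10 genes, and that of the lumbar level was 0.51. The change was -1.05 ± 0.15 (2.08-fold, adjusted p = 1.6e-05, limma). An annotated pseudogene on the other strand, Gm8217, overlaps the span of Htr5b but shares 0 exonic bases with it.

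Htr7, a Gs-coupled receptor (minus strand of chr19:36033224-36131997), was the least abundant of the 10. Its lumbar levels were -4.23, -2.50, -1.49, -1.13 and -0.13 in M1 to M5 and -1.89, -3.48, -2.33, -1.94 and -2.86 in F1 to F5. Sacral levels were -1.49, -1.97, -1.01, -0.35 and -1.03 in the males and 0.24, -0.97, -0.61, 0.47 and -0.07 in the females. These levels stand for 9 to 117 reads per lumbar library and 50 to 231 reads per sacral library. In the females the levels did not overlap, and in the males they did, with M5 higher in lumbar neurons. The change was -1.52 ± 0.38 (2.87-fold, adjusted p = 0.0026, limma), in a gene that was kept for testing by its female sacral level.

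Htr2a, which encodes the Gq-coupled 5-HT2A receptor (plus strand of chr14:75040647-75106666), showed a smaller difference. Lumbar levels were 0.34, 0.88, 0.77, 0.75 and 0.18 in M1 to M5 and 1.28, 1.02, 0.83, 0.81 and 1.40 in F1 to F5. Sacral levels were 1.30, 1.11, 0.95, 1.31 and 1.86 in the males and 1.52, 1.0, 1.67, 1.75 and 2.09 in the females. In 9 of 10 donors the sacral level was higher, the exception being F2, whose levels differed by 0.02. The change was -0.63 ± 0.14 (1.55-fold, adjusted p = 0.0011, limma).

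The windows before the starts of Htr2a (GRCm38.p6, chr14:74640624-74640873, plus strand) and Htr7 (chr19:36057361-36057610, minus strand) are shown as those of the other called genes with an entry:
Htr2a: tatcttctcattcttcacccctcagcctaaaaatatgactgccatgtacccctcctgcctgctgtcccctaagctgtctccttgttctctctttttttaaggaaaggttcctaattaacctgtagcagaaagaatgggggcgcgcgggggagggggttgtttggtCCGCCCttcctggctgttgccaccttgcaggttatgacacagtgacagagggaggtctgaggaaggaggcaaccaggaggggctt
Htr7: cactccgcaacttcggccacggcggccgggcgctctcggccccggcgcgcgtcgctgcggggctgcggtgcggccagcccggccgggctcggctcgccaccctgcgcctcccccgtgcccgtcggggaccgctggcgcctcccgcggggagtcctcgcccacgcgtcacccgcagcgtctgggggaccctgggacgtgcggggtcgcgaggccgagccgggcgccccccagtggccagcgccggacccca
The capitals mark a GC box of Htr2a, read on the other strand, which begins 85 bases before the start. No other of the 6 motifs was found in either window. The Htr7 window was 82.0% G or C with 41 CG pairs, against 52.8% and 4 CG pairs for Htr2a and 1 CG pair for Htr3b.

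Over both sexes, limma called no gene of the 5-HT1 class between the levels. Htr1f, which went in opposite directions in males and females and was called in the males, is described further on. Htr1a was measured at 2.04 ± 0.58 in lumbar and 2.31 ± 0.39 in sacral libraries, a change of -0.27 (95% interval -0.61 to 0.08). Htr1b was at 2.77 ± 0.39 and 2.96 ± 0.38, a change of -0.19 (-0.49 to 0.12). Htr1d was at 1.81 ± 0.33 and 1.95 ± 0.40, a change of -0.13 (-0.39 to 0.13). Their levels overlapped, and 6, 7 and 7 of 10 donors had more Htr1a, Htr1b and Htr1d in sacral neurons. The adjusted p-values in limma were 0.19, 0.31 and 0.40, and the intervals reach to -0.61, -0.49 and -0.39 towards sacral neurons. Of the 1273 exonic bases of Htr1b, 852 are shared with D430036J16Rik, a noncoding gene on the other strand, and strand use in counting is not given in the sources used here. The value of D430036J16Rik was 2.41 ± 0.38 in lumbar and 2.53 ± 0.35 in sacral libraries, so that the RNA of this pair cannot be told apart with certainty.

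Htr4, a Gs-coupled receptor known for its role in the gut, was low and variable. Lumbar levels ran from -2.63 through a median of -0.52 to -0.29, and sacral levels from -2.15 through 0.04 to 0.80. The change was -0.40 (95% interval -1.07 to 0.27, adjusted p = 0.32, limma), with 7 of 10 donors higher in sacral neurons. Reads ranged from 30 to 466 per library.

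**Figure D3:**
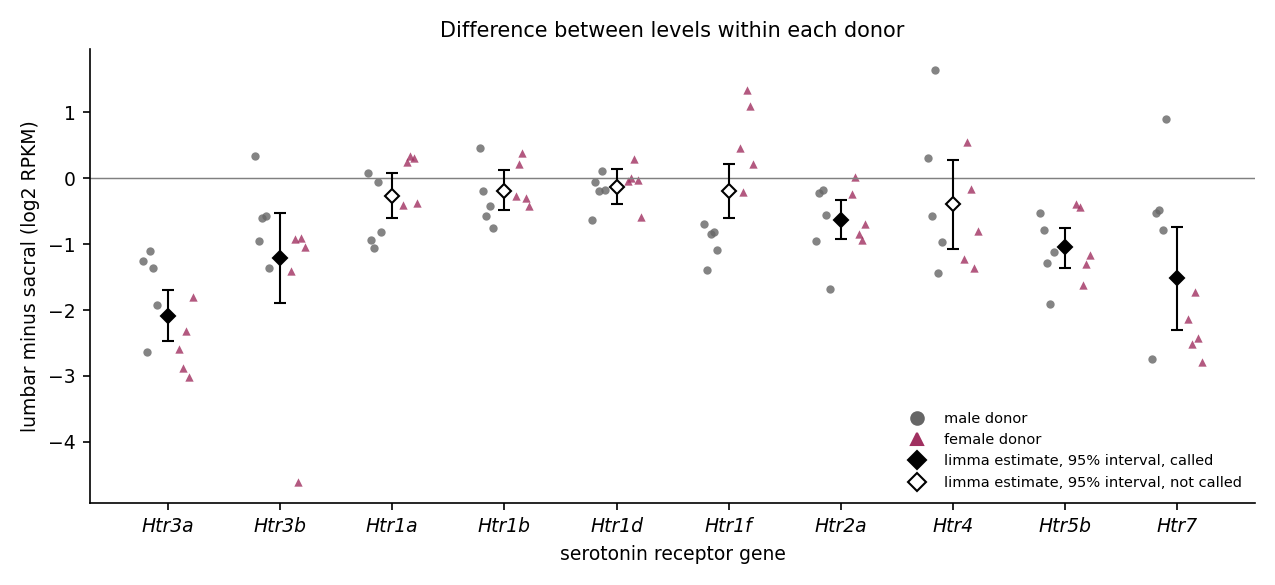
Lumbar minus sacral log2 RPKM in each donor (circles male, triangles female) with the limma estimate and its 95% interval; filled diamonds passed an adjusted p of at most 0.05. Htr3a and Htr5b lie below 0 in all 10 donors, and the Htr1f donors divide by sex around 0.

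How far these differences reach depends on what the libraries are set against. Scaled with TMM factors or by quantiles, which put the median change of all tested genes at 0.00 and -0.02, the 5 genes called remained the same 5, with Htr3a at -1.98 and -1.91. All 5 were again more in sacral neurons, as were 3571 and 3432 of 16304 tested genes. Scaled to total reads, the median of all tested genes was -0.44 and 9 of the 10 genes were called as more in sacral neurons, where 59% of all tested genes were. Relative to the mean of the 8 nociceptor markers in each library, the median of all genes was 0.51. Htr3a (-1.47, adjusted p = 5.1e-06) and Htr5b (-0.43, adjusted p = 0.0096) were then the members called as more in sacral neurons, as 2.21% of tested genes were. Htr1a (0.35), Htr1b (0.43), Htr1d (0.49) and Htr1f (0.43) were then called as more in lumbar neurons, as 69.5% of tested genes were. Htr3b (-0.59), Htr7 (-0.90), Htr2a (-0.01) and Htr4 (0.22) were not called. With the glial marker mean as a covariate, Htr3a alone was called, at -1.48 with an adjusted p of 0.023 in limma, when 0.853% of tested genes were called as more in sacral neurons. The estimates then were -2.05 for Htr7 (adjusted p = 0.21), -0.74 for Htr5b (adjusted p = 0.22), -0.51 for Htr2a (adjusted p = 0.45) and 0.07 for Htr3b (adjusted p = 0.98), in limma. That of Htr7 was further from 0 than without the covariate, and those of Htr5b and Htr2a were nearer to it. The glial mean was higher in the lumbar library of every donor, so this fit separates it poorly from the level. It called 162 of 16304 genes, where the fit without the covariate called 7436. These shifts of the estimates are therefore not read as changes. Over all 26 alternatives run the adjusted p ranged from 2.8e-08 to 0.023 for Htr3a, from 8.6e-07 to 0.22 for Htr5b and from 0.00046 to 0.98 for Htr3b, in limma. The glial and nociceptor marker lists moved with the level in every donor, and their part in the smaller differences was not tested beyond these fits.

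**Figure D4:**
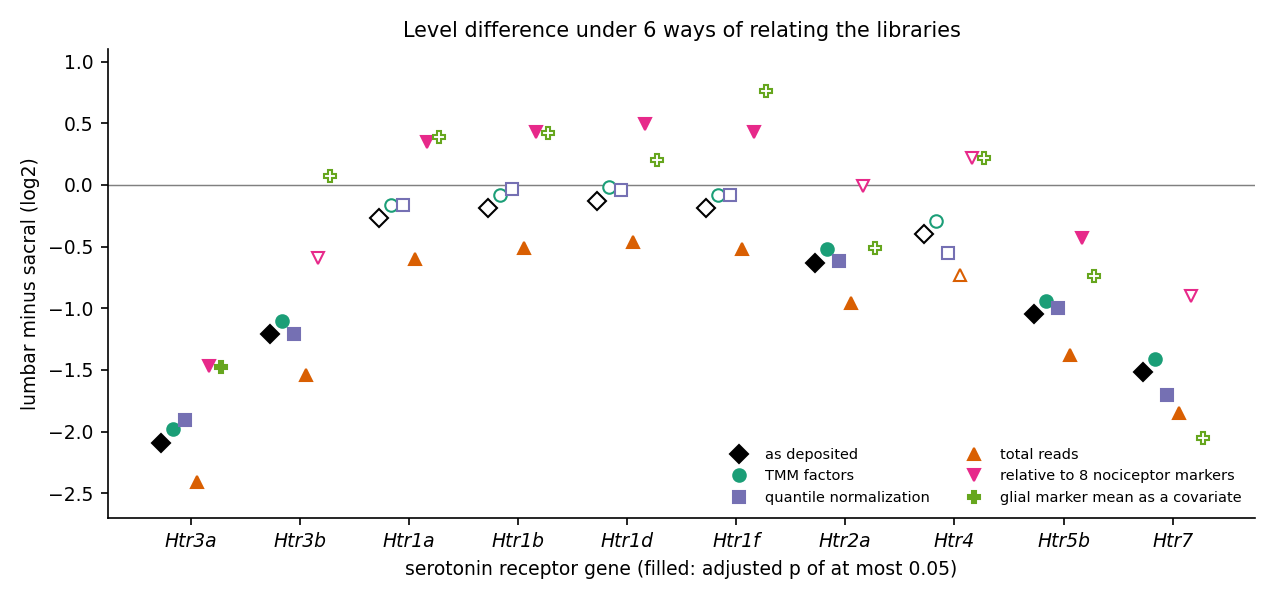
Lumbar minus sacral log2 change of each gene as deposited, with TMM factors, after quantile normalization, scaled to total reads, relative to the 8 nociceptor markers, and with the glial marker mean as a covariate; filled symbols passed an adjusted p of at most 0.05. Htr3a stays between -2.41 and -1.47 and filled in all 6, and the 5-HT1 genes lie on either side of 0.

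Htr1f, a receptor of the 5-HT1 class on the minus strand of chr16:64924555-65105610, went in opposite directions in most males and most females. Lumbar levels were 2.07, 0.93, 1.79, 1.97 and 1.82 in M1 to M5 and 2.90, 3.05, 2.45, 2.43 and 3.11 in F1 to F5. Sacral levels were 2.76, 2.31, 2.64, 2.78 and 2.91 in the males and 2.44, 3.26, 1.13, 1.34 and 2.88 in the females. All 5 males had more in sacral neurons, and 4 of 5 females had more in lumbar neurons. Over both sexes the change was -0.19 ± 0.20 (adjusted p = 0.44, limma). It was -0.97 ± 0.28 in the males (adjusted p = 0.013, limma) and 0.58 ± 0.28 in the females (adjusted p = 0.13, limma). The difference of these differences was 1.54 ± 0.39, with an unadjusted p of 0.00078 and an adjusted p of 0.83 over all tested genes in limma. It therefore did not pass, as was so for each of the 16304 genes tested, 668 of which had an unadjusted p under 0.05.

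The Htr1f level followed genes of the Sst- and Nppb-expressing itch neurons from library to library. Among 15317 genes with 20 values, the 2 with the highest Pearson r to Htr1f were Il31ra, which encodes the receptor of the itch cytokine IL-31, and Cysltr2, which encodes a leukotriene receptor. This was so both for the levels (r = 0.94 and 0.88) and for the deviations from the 4 group means (r = 0.92 and 0.85, n = 20 libraries). Both are on the list of 6 markers of this class. The correlations of Htr1f, Htr1a and Htr4 were chosen for the text after their values were seen. The deviations of the other markers had r = 0.82 for Osmr, 0.72 for Sst, 0.68 for Nppb and 0.54 for Nts. For Il31ra, Spearman's rho was 0.93 (0.87 for Cysltr2), and without the 2 libraries farthest from the median of Il31ra r was 0.85. The Htr1f deviations also went with other lists, with r = 0.89 for the mean of the 6 itch neuron markers, -0.71 for the glial, 0.65 for the Gi/o and Gz and 0.52 for the peptidergic nociceptor genes. The F3 sacral library, 1 of the 2 left out above, had the highest glial mean of its group (5.35, the others 4.31 to 4.71), and the part of these lists was not tested. These libraries share donors, sorts and amplification, so the correlations are a description with no test.

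**Figure D5:**
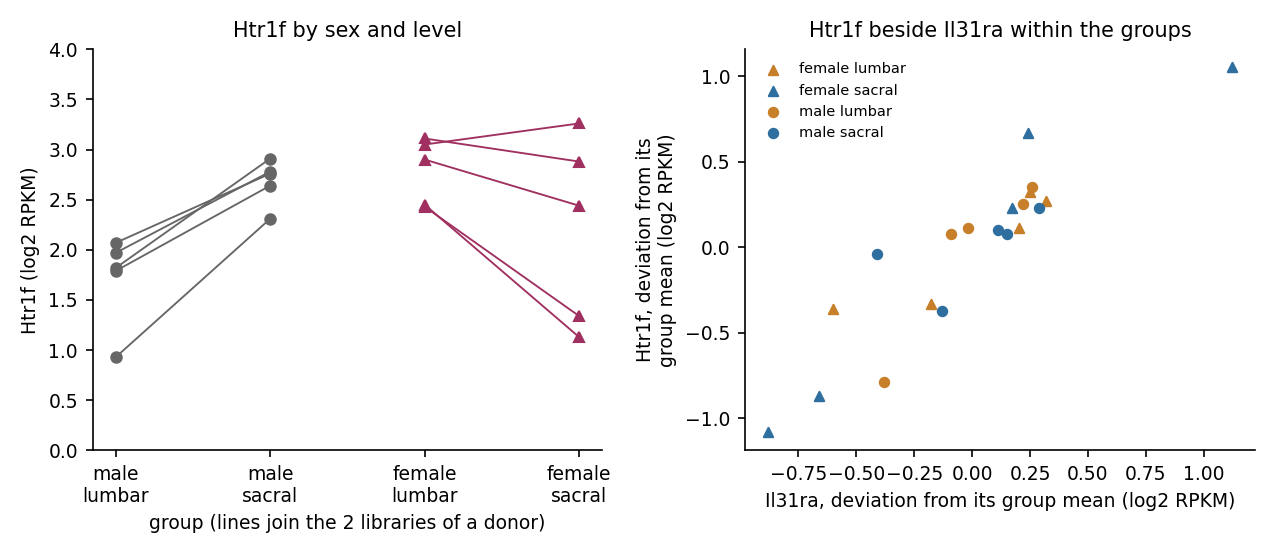
Left, Htr1f level (log2 RPKM) in the lumbar and sacral library of each donor by sex; right, deviation of Htr1f from its group mean against that of Il31ra (log2 RPKM), 1 point per library. All 5 males lie higher in sacral and 4 of 5 females higher in lumbar neurons, and the deviations of both genes follow each other with r = 0.92.

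The mean of these markers also divided by sex, although not every marker did. The mean of the 6 markers was lower in lumbar than in sacral neurons of 5 of 5 males, by -0.54 ± 0.30 (SD), and higher in 4 of 5 females, by 0.50 ± 0.53. The Il31ra difference was -0.88 ± 0.24 in males (SE, adjusted p = 0.0097, limma) and 0.36 ± 0.24 in females (adjusted p = 0.28, limma), with an adjusted p of 0.83 for the difference. Osmr and Cysltr2 were lower in lumbar neurons of 5 of 5 males as well (-0.56 and -0.87), but in females they were at -0.08 and 0.12, with 1 and 3 of 5 females higher in lumbar neurons. The part of this marker class in the Htr1f values was not tested. Htr1a went with it too, with r = 0.69 between its deviations and those of the mean of the 6 markers. Other lists had r of similar size with Htr1a, at 0.68 for the Gi/o and Gz, 0.64 for the peptidergic nociceptor and -0.59 for the glial genes. Osmr (r = 0.89) and Npy2r (r = 0.87) were the genes most like Htr1a. Htr4 went with another list, that of the nonpeptidergic nociceptors, with r = 0.77 to the mean of its 5 markers. Its r was 0.83 to Mrgprd, 1 of these 5, whose receptor marks that class. Among all genes compared, Fam167a (r = 0.87) stood above Mrgprd, and Rspo2 (r = 0.83) beside it. Spearman's rho was 0.92 for Htr1a with Osmr and 0.64 for Htr4 with Mrgprd. Without the 2 libraries farthest from the median of the other gene, r was 0.87 for Htr1a with Osmr and 0.75 for Htr4 with Mrgprd. Htr3b, Htr3a and Htr2a had r of 0.61, 0.60 and 0.52 with the nonpeptidergic markers. For Htr3b this list did not stand out. Its r was 0.66 with the peptidergic nociceptor markers, 0.68 with the Gi/o and Gz genes, 0.83 with the receptor partner genes and -0.60 with the glial markers. With the peptidergic markers r was 0.77 for Htr1b, 0.16 for Htr3a, 0.14 for Htr2a and -0.60 for Htr7. With the itch neuron markers r was 0.53 for Htr3a, 0.35 for Htr3b, -0.27 for Htr2a and -0.21 for Htr7.

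Between the sexes, limma called none of the 10 genes in sacral or in lumbar neurons, and none had a level difference that passed as different between the sexes. At an unadjusted p under 0.05 there were 1, 4 and 3 of the 10 genes in these comparisons, beside 8.09%, 11.4% and 4.1% of all tested genes, and voom on the reads worked back from the values also called 0 in each. Among all tested genes 0.0368% were called between the sexes in sacral neurons, 0.0427% in lumbar neurons, and 0% for the difference of the differences. Htr3a was at 5.03 ± 0.36 in female and 4.28 ± 0.42 in male sacral neurons (SD, n = 5), a difference of 0.75 (95% interval 0.16 to 1.35, adjusted p = 0.54, limma). In lumbar neurons the 4 were Htr1a, Htr1d, Htr1f and Htr2a, which had female minus male differences of 0.66, 0.43, 1.07 and 0.48, and adjusted p-values of 0.36, 0.42, 0.26 and 0.42 in limma.

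Taken by sex, 4 of the 10 genes were called as more in sacral neurons of the males (20.2% of tested genes) and 4 in those of the females (16.8%), with Htr3a and Htr5b called in both. The change in level was -2.52 ± 0.26 in females and -1.66 ± 0.26 in males for Htr3a, and both passed (adjusted p = 4.1e-06 and 0.0003, limma). For Htr3b it was -1.78 ± 0.46 in females (adjusted p = 0.0087, limma) and -0.64 ± 0.46 in males (adjusted p = 0.31, limma). For Htr7 it was -2.31 ± 0.53 in females (adjusted p = 0.0044, limma) and -0.73 ± 0.53 in males (adjusted p = 0.31, limma). Htr7 was kept for testing by its female sacral level alone, so its female call, 1 of the 4, is given as a description. Each of these female-to-male differences had an adjusted p of 1 in limma, so they are not shown to differ by sex. The change of Htr5b was -0.98 in females and -1.13 in males.

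Of the other 4 serotonin receptor genes, Htr5a was the only one that passed the filter. Its level was 0.76 ± 0.46 in lumbar and 1.43 ± 0.39 in sacral libraries, a change of -0.67 ± 0.15 (adjusted p = 0.00096, limma), with 10 of 10 donors higher in sacral neurons. Htr5a thus followed Htr5b in direction, and the difference between them was not tested. Htr2b, at -1.38 ± 0.89 and -2.08 ± 1.0 (11 to 66 reads), was higher in lumbar libraries of 8 of 10 donors and was not tested. Htr6 had a value in 15 libraries with at most 16 reads, and Htr2c in 3 libraries with at most 5.

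Genes of the proteins that carry receptor signals are set beside all tested genes, of which 30.3% were called as more in sacral and 15.3% as more in lumbar neurons. Of 10 receptor partners, 7 were upregulated in sacral neurons and 0 in lumbar neurons, with a median change of -0.37. Among them were Arrb1 (-0.52) and Arrb2 (-0.44), the β-arrestins, and Adrbk2 (-0.50), a G protein coupled receptor kinase. Of the 5 Gi/o and Gz subunit genes 4 were upregulated in sacral neurons, led by Gnaz (-0.60) and Gnao1 (-0.59). Of the Gq and phospholipase C beta genes, 2 of 5 tested were, Plcb3 (-0.55) and Gnaq (-0.43). Of the 11 Gs and adenylyl cyclase genes, 7 were upregulated in sacral and 2 in lumbar neurons, with Adcy8 at -1.04, Adcy7 at -0.84, Adcy4 at 1.11 and Adcy6 at 0.75. The medians of these lists were -0.20, -0.27 and -0.40, beside -0.11 for all tested genes.

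Genes that make, move or break down serotonin gave few values above the filter. Of 11, 5 were tested, and Slc29a4, the plasma membrane monoamine transporter, changed by -0.85 ± 0.13 (adjusted p = 3.9e-05, limma), with 10 of 10 donors higher in sacral neurons. Maob (-0.83) was also upregulated in sacral and Aldh2 (0.33) in lumbar neurons. Tph1 and Tph2, the enzymes that begin serotonin synthesis, and Slc6a4, its reuptake transporter, were below the filter and are named for their role after their values were seen. Of the mast cell markers Cpa3, Tpsb2, Mcpt4, Cma1 and Fcer1a, no one had a value in all 20 libraries, while Kit, which sensory neurons also express, was at 4.25 ± 0.28 and 5.12 ± 0.30. The platelet marker Pf4 was at -0.32 ± 1.18 in 9 lumbar and -2.32 ± 1.42 in 7 sacral libraries.

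The tested neighbours of Htr3a and Htr3b on chromosome 9 showed smaller differences than both. Of the 8 genes with a start within 300 kb of the Htr3a to Htr3b span, Htr3a and Htr3b included, 5 passed the filter. Usp28, a deubiquitinase 20.4 kb away, was at 0.39 ± 0.33 in lumbar and 0.31 ± 0.53 in sacral libraries (change 0.08, adjusted p = 0.77, limma). Zw10, a kinetochore protein gene, was called, at -0.45 ± 0.18 (adjusted p = 0.046, limma), and Tmprss5, a serine protease gene, was not, at 0.81 ± 0.37 (adjusted p = 0.078, limma). Zbtb16 and Nnmt lay below the filter and were not tested, with Zbtb16 at -1.90 ± 1.23 and -1.46 ± 0.67 and Nnmt at -2.45 ± 1.18 in 8 lumbar and -4.12 ± 1.80 in 8 sacral libraries (0 to 56 reads), and Cldn21 had no value in any library.

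The genes most like the 5 called members over the 20 libraries are given as a description, with Pearson r of the levels first. They were Thy1 (0.96), Bet3l (0.96) and Syngr1 (0.94) for Htr3a, and Gm15200 (0.93), Eif5a2 (0.90) and Polr3g (0.90) for Htr3b. They were Gm14584 (0.94), Sh3gl2 (0.93) and Vstm2a (0.92) for Htr5b, Fam115c (0.79), Cadps2 (0.76) and B3gnt8 (0.75) for Htr7, and Fbxw7 (0.86), Dclk3 (0.85) and B230208H17Rik (0.85) for Htr2a. For the deviations from the group means they were Aprt (0.82), Thy1 (0.81) and Spock3 (0.79) for Htr3a, and Cdk5 (0.94), Gm15200 (0.93) and Slc25a1 (0.91) for Htr3b. They were Cdh9 (0.85), Rundc3b (0.82) and Cdc73 (0.81) for Htr5b, Cnih4 (0.84), ENSMUSG00000093536 (0.80) and Slc35b2 (0.76) for Htr7, and Vrk1 (0.82), Zfp7 (0.80) and Cebpg (0.80) for Htr2a. Thy1, a surface protein of neurons, stood near Htr3a and Gm15200 near Htr3b by both measures. Htr3a and Htr3b themselves had r = 0.39 between their deviations, and the closest pair among the 10 genes was Htr1a and Htr1f, with r = 0.77.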

How the data were processed

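RNA was measured in 20 libraries of sorted Trpv1 neurons, placed in groups by their labels. The authors aligned reads to mm9 with Subread, retained unique reads, assigned them to Ensembl genes by featureCounts, and deposited log2 RPKM values after TMM scaling (edgeR 3.12.1) and voom (limma 3.26.9). All deposited columns have the same median, by a step not given in the sources used here, and genes without reads are empty. Library numbers run group by group, so order and group cannot be told apart. NuGEN amplification was used, and whether counting used strand is not given in the sources used here.

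Of 37620 genes, 37205 matched the NCBIM37 annotation. Reads were worked back from the steps of low values: 98.1% of 403029 values came out whole within 0.01 reads, and depth was taken from them. Depth sets counting error alone. Whether the libraries are separate animals or pools cannot be settled, so p-values measure the spread between these libraries.

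Values were fitted with limma 3.58.1 in R 4.3.3, with 4 group means, donor as a random block (duplicateCorrelation, 0.17), a trend of variance on mean, and Benjamini-Hochberg adjustment over all genes tested, at 0.05. Genes with a mean log2 RPKM above -1 in at least 1 group, over at least 3 values, were tested (16304 between levels). Lumbar and sacral libraries of a donor share their animal numbers. Their deviations from the group means had a mean r of 0.14 (0.02 to 0.24) over 17138 genes, against -0.03 for different donors of a sex. The ratio of the channel subunits was tested by exact sign flips over donors. Scripts used Python 3.11.15 and were tested on simulated data.

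The 10 genes and all lists were chosen with earlier results of these data known. The genes named by rule are these 10, the 4 other serotonin receptor genes and up to 4 called genes with the largest change of each list. The rule also takes genes within 300 kb of Htr3a and Htr3b, and the 3 genes most correlated with each called member. Outside the rule, further genes of the lists, called or not, and genes most like Htr1a, Htr1f and Htr4 are named. Not every called list gene that the rule would take is named. A gene that this rule would name is not reported here. Alternatives varied the filter, pseudocount, scaling, model, donor term, samples, threshold and a glial covariate, and 1, the scaling to nociceptor markers, was chosen after seeing the data. Promoter windows are RefSeq sequences of GRCm38.p6.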

Additional observations from a re-analysis of the deposited data

Results flagged for a closer look

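In 5 of 40 groups of 5 libraries, 1 library lay far from the other 4 of its group (Dixon's test), where chance alone gives about 1 in 20. In male lumbar neurons donor M2 had 1.44 for Htr3a (log2 RPKM; the others 2.76 to 3.15) and 0.93 for Htr1f (others 1.79 to 2.07). The mean of the glial markers in this library was 6.37, above the 5.57 to 6.24 of the other male lumbar libraries, and its part in both values was not tested. In female lumbar neurons donor F3 had -2.31 for Htr3b (others 0.84 to 1.48), or 23 reads, and a glial mean of 6.05 (others 5.27 to 5.84). In female sacral neurons F3 had 2.14 for Htr1b (others 2.96 to 3.15), with a glial mean of 5.35 (others 4.31 to 4.71). In female lumbar neurons donor F4 had -1.15 for Htr4 (others -0.53 to -0.29), with a glial mean of 5.84 that lay among the others (5.27 to 6.05).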

How the results depend on the processing

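The count of 5 genes called between the levels was the same 5 genes with every donor left out in turn (range 5 to 5), without the donor block (no replicate block: 5), with voom, TMM, quantiles and both pseudocounts. The main fit called 30.3% of tested genes as more in sacral neurons. The count was 4 with a filter above 0 (4890 of 14080 tested genes), in males alone (2975 of 15978) and in females alone (2519 of 15702). The 4 in males include Htr1f, which is not among the 5. It was 9 when scaled to total reads (59% of tested genes) and 1 with the glial covariate (0.853%). Relative to nociceptor markers it was 6, of which 2 were more in sacral (2.21% of tested genes) and 4 more in lumbar neurons (69.5%). Estimates changed sign with the glial covariate for Htr3b (0.07), Htr1a (0.39), Htr1b (0.42), Htr1d (0.20), Htr1f (0.76) and Htr4 (0.22), none of them called in that fit. Relative to nociceptor markers they did so for Htr1a (0.35), Htr1b (0.43), Htr1d (0.49), Htr1f (0.43) and Htr4 (0.22). In females alone they did so for Htr1a (0.02) and Htr1f (0.58). Counts between the sexes and of the difference of differences stayed at 0 in all settings run (0 to 0 with a donor left out). The Htr3a to Htr3b ratio change of -0.88 did not pass 0.05 in the main test (exact permutation p = 0.059). It passed with pseudocounts of 1 (-1.16) and 0.1 (-0.95), unpaired without the donor block (-0.88, exact permutation p = 0.024), and without F3. The p without F3 was fixed by leaving out the only donor of opposite sign, and a pseudocount weighs more on Htr3b, the lower gene. With a donor left out the change ranged from -1.23 to -0.74. Htr7 was not tested in males alone or with a filter above 0. Apart from what these settings construct, the causes were not tested. The donor block changed no other call.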
